A study of Mus musculus with 6 samples.

Results

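The laminin chain genes analysed here are the 9 genes Lama1 to Lama5, Lamb1 to Lamb3 and Lamc1, taken as every probe set of the array whose annotation names exactly 1 of them. All 9 were on the array, with 17 probe sets, and all 9 were among the 13717 genes tested of 18193 named genes. Each gene is read from its brightest probe set, the one with the highest mean over all arrays, and the other probe sets serve as a check. The samples were the 2 tissue layers of the lower urinary tract, bladder neck with urethra, from embryonic day 13 (Theiler stage 21) of the mouse strain FVB/N. All were wild-type, of unknown sex and, per the labels, not pooled. The epithelium (arrays 1, 2 and 5, titled urothelium) and the mesenchyme (arrays 1, 2 and 3) were parted with a needle after trypsin digestion of the whole piece. The study asked which genes distinguish the layers, and no sample carries a mutation or a treatment that the others lack. Nothing in the labels ties an array to 1 embryo, and p-values therefore measure the spread between these samples, which may be technical.

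Laminins are secreted proteins of the basement membrane, the sheet of matrix on which epithelia rest and which also wraps muscle, nerve and vessels. Each laminin joins an alpha, a beta and a gamma chain through a coiled coil, and its name gives the numbers of the 3 chains in that order. The globular end of the alpha chain binds integrins and dystroglycan on cells, while the short arms of most chains link laminins into a network that nidogens tie to collagen IV. Laminin-511 and laminin-332 are known from epithelial basement membranes, laminin-211 from muscle and peripheral nerve, laminin-411 from vessels, and laminin-111 from early embryonic basement membranes.

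Promoter windows from RefSeq (GRCm38.p6, 250 bases before to 50 after an annotated start) were matched for 5 of the 9 genes, all but Lama1, Lama3, Lama4 and Lamc1, and 4 windows are shown because their genes differ in the values given further on, Lama2 being higher in mesenchyme, Lama5 higher in epithelium, Lamb3 just short of the threshold with all arrays and past it without mesenchyme 1, and Lamb1 not past the threshold. Each is written 5′ to 3′ on the gene's strand, and capitals mark the letters found by a search of both strands for the GC box GGGCGG, the TATA box TATAAA, the E2 box CAGGTG, the grainyhead site AACCGGTT and the AP-1 site TGANTCA. The windows lie at chr10:27616893-27617192 (Lama2, minus strand), chr2:180225810-180226109 (Lama5, minus strand), chr1:193301993-193302292 (Lamb3, plus strand, the second of its 2 annotated starts) and chr12:31265043-31265342 (Lamb1, plus strand).
Lama2: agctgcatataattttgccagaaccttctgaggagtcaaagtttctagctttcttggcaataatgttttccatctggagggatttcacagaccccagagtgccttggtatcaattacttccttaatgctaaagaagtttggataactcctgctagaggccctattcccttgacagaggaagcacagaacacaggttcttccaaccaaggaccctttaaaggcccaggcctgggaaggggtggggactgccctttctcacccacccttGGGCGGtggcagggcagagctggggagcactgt
Lama5: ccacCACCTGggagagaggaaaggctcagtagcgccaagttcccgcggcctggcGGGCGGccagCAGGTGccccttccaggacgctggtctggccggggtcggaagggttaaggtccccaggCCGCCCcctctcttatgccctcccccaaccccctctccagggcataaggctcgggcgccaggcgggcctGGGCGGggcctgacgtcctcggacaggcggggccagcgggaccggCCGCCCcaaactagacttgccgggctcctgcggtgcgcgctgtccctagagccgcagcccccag
Lamb3: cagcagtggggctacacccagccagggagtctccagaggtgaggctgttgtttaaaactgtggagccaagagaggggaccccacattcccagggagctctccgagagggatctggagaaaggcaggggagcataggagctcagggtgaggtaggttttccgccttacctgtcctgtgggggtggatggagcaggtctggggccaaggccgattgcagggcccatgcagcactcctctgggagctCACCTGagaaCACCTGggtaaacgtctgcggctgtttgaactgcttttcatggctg
Lamb1: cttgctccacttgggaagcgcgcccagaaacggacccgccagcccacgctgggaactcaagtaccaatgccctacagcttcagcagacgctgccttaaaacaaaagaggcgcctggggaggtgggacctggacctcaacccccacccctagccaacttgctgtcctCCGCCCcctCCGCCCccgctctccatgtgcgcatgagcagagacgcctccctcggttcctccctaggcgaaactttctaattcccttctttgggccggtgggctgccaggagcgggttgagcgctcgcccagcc
Lama5 had 4 GC boxes and 2 E2 boxes, Lamb1 had 2 GC boxes, Lama2 had 1 GC box, and Lamb3 had 2 E2 boxes, 1 on either side of its start. The other Lamb3 window, which overlaps this one, held none of these motifs, and the one shown was chosen for its matches. Of 32817 windows of this length in the table, 35.6% held a GC box, 20.2% an E2 box, 13.6% a TATA box, 7.81% an AP-1 site and 0.146% a grainyhead site. The Lama5 window held 24 CG dinucleotides and that of Lamb1 18, against a median of 7 over all windows, while Lama2 held 1 and Lamb3 5. These matches describe letters in the windows and were not tested as binding sites.

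Values are normalized signal units, from arrays whose deposited medians ran from 126 to 254, and precision is limited by having 3 arrays a layer. Differences are on the log2(signal + 16) scale, epithelium minus mesenchyme, with limma's standard error. That scale understates the change of dim genes. The array titled mesenchyme 1 stood apart. Across genes, which are not independent replicates, it correlated at r = 0.755 to 0.784 with mesenchyme 2 and 3, which correlated at 0.981 with each other, and 15 of 16 listed markers of other organs read over 4-fold higher on it than on any other array. The liver gene Alb read 58365 there and at most 216 elsewhere. The 10 listed epithelial markers, such as Krt8 and Epcam, summed to 190296 to 225182 units on the epithelial arrays, 70415 on mesenchyme 1, 14592 on mesenchyme 2 and 2679 on mesenchyme 3. Cldn6 and Grhl2 were lower on mesenchyme 1 than on mesenchyme 2, and the rest of the list was higher. The 11 mesenchymal markers summed to 23550 to 42553 on the epithelial and 152664 to 201977 on the mesenchymal arrays. Mesenchyme 1 had the highest sum, with Col1a1, Col3a1, Dcn, Lum and Postn highest there and the rest of the list lowest of its layer. Twist1 read 467 on it, inside the epithelial range of 333 to 724. The laminin results are therefore given with all 6 arrays and without mesenchyme 1.

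Of the 5 alpha chains 4 passed the test, 2 in each direction, while no beta chain and not Lamc1 passed. Of the 9 genes, Lama3 and Lama5 were higher in epithelium and Lama4 and Lama2 higher in mesenchyme, at adjusted p under 0.05 in limma over all genes. The other 5 did not pass. Over all genes tested, 1.95% were higher in epithelium and 4.03% higher in mesenchyme by the same rule. Without mesenchyme 1, Lamb3 joined the epithelial group (3 of 9, against 6.37% of all genes), and the same 2 genes were higher in mesenchyme (against 8.17%). Lamb3 passed the filter on mean log2 signal through its epithelial arrays. Both mesenchymal readings left in that fit were under the filter level (96.3 units), so its call is no separate support. The median difference of the 9 genes was 0.20, and that of all genes 0.12. Without mesenchyme 1 these medians were -0.02 and 0.02.

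**Figure D1:**
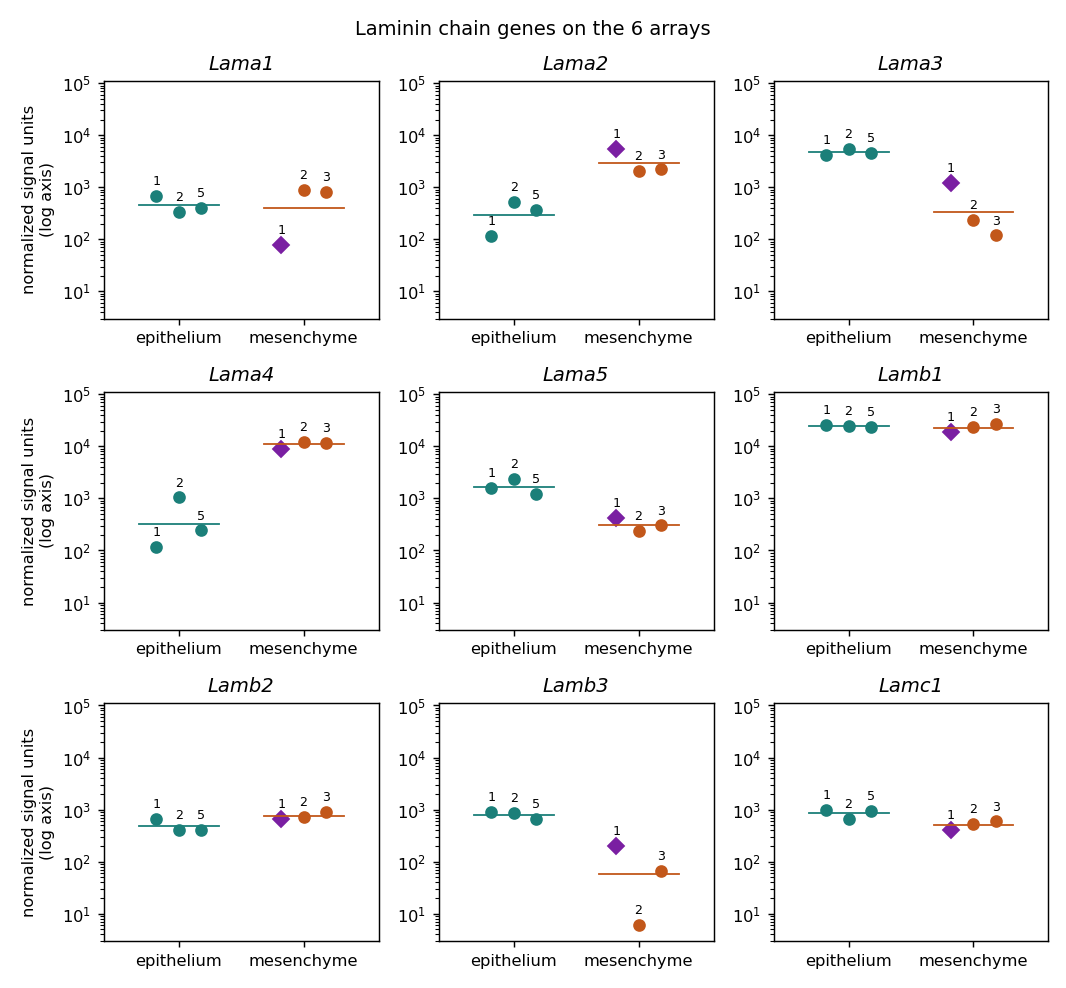
Normalized signal (log axis, signal units) of the brightest probe set of each laminin chain gene on the 3 epithelial and 3 mesenchymal arrays, with array numbers, and lines at the layer means taken on the log2 scale. The purple diamond is mesenchyme 1, which lies between the layers for Lama3 and Lamb3 and far below every other array for Lama1 (77.2).

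Lama3 encodes alpha 3, the alpha chain of laminin-332, which anchors stratified epithelia through hemidesmosomes. It read 4226, 5378 and 4559 on epithelium 1, 2 and 5, and 1194, 233 and 119 on mesenchyme 1, 2 and 3. The epithelial arrays lay close together and above all mesenchymal arrays, among which mesenchyme 1 was the highest. The difference was 3.77 ± 0.754 (SE, n = 3 and 3, 13.7-fold, limma adjusted p = 0.0317), and without mesenchyme 1 it was 4.79 ± 0.330 (27.6-fold, adjusted p = 0.00072). Leaving out any of the other 5 arrays gave differences of 3.09 to 3.85 and ended the call, with adjusted p from 0.0663 (mesenchyme 3) to 0.134 (epithelium 5). The probe set is of the kind that can match several transcripts, and the table does not say which of the gene's long and short forms it reads.

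Lama5 encodes the alpha 5 chain of laminin-511, a major chain of epithelial basement membranes in developing organs. The signal was 1610, 2373 and 1215 on the epithelial arrays and 423, 239 and 304 on the mesenchymal ones. The layers did not overlap, and mesenchyme 1 was again the highest of its layer. The fitted difference of Lama5 was 2.35 ± 0.395 (5.11-fold, limma adjusted p = 0.0175), and by 2.64 ± 0.353 (adjusted p = 0.00338) without mesenchyme 1. Its call also ended when any other single array was left out, with differences of 2.04 to 2.61 and adjusted p from 0.0573 (epithelium 5) to 0.0994 (epithelium 1).

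Lama4 encodes the alpha 4 chain of laminin-411, which has a short arm too small to join the laminin network and is best known from endothelium. It had the largest difference of the 9 genes. On mesenchyme 1, 2 and 3 it read 8938, 12319 and 11695, and on epithelium 1, 2 and 5 it read 118, 1044 and 242. The mesenchymal arrays were close together, whereas epithelium 2 stood above the other epithelial arrays. The difference was -5.03 ± 0.712 (32.8-fold, limma adjusted p = 0.0105), and -5.26 (38.4-fold, adjusted p = 0.00548) without mesenchyme 1. Without epithelium 5 adjusted p was 0.0639 and without mesenchyme 2 it was 0.0504, while the call held without each of the other arrays. Without epithelium 2 the difference was -5.77 and without epithelium 1 -4.39, folds that differ from the main one by over 1.5 times.

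Lama2 encodes the alpha 2 chain of laminin-211, the laminin of muscle fibres and Schwann cells whose loss causes a muscular dystrophy. Its mesenchymal readings were 5370, 2072 and 2208, with mesenchyme 1 the highest, and its epithelial readings 118, 531 and 373. The layers did not overlap, and within the epithelium the order of the arrays was that of Lama4. Lama2 differed by -3.26 ± 0.626 (9.56-fold, limma adjusted p = 0.0276) and by -2.89 ± 0.580 (7.42-fold, adjusted p = 0.0164) without mesenchyme 1. The call ended without epithelium 1 (-2.66, adjusted p = 0.0937), epithelium 5 (adjusted p = 0.0995), mesenchyme 2 (0.0752) or mesenchyme 3 (0.0635).

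Lama1 encodes the alpha 1 chain of laminin-111, the first laminin to form in the mouse embryo. Epithelium 1, 2 and 5 read 693, 339.9 and 399, mesenchyme 2 and 3 read 876 and 815, and mesenchyme 1 read 77.2. That last reading was the lowest of the 6, so the layers overlapped with all arrays and did not without mesenchyme 1. The difference was 0.20 ± 0.883 (limma adjusted p = 0.920) and turned to -0.90 ± 0.370 (95% interval -1.77 to -0.02, adjusted p = 0.178) without mesenchyme 1. Neither passed, and the interval over 6 arrays, -1.87 to 2.27, leaves both directions possible.

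**Figure D2:**
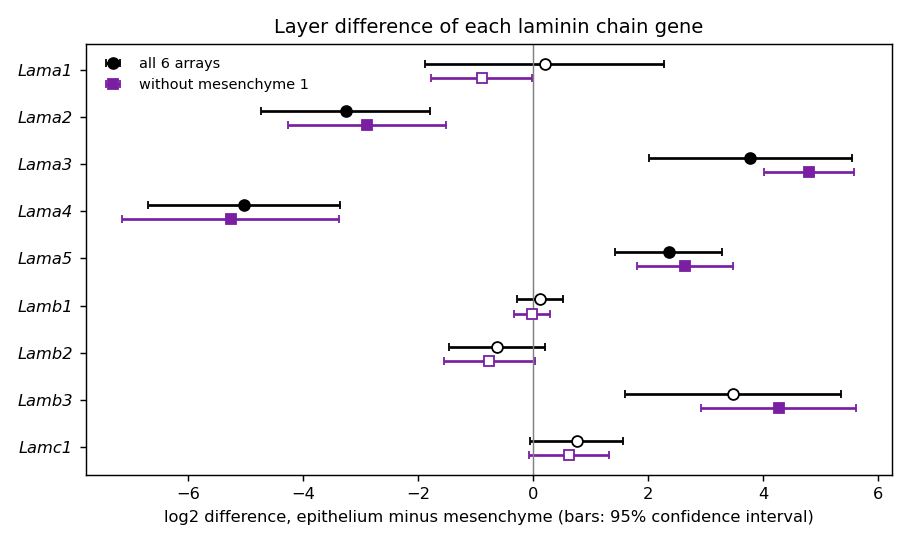
Log2 difference (epithelium minus mesenchyme) of each laminin chain gene with its 95% confidence interval from limma, for all 6 arrays (black circles) and without mesenchyme 1 (purple squares), filled where adjusted p is under 0.05. Lama4 and Lama2 lie to the left, Lama3, Lama5 and Lamb3 to the right, and the sign of Lama1 turns between the fits.

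Among the beta chains, Lamb3 had the largest difference, which just missed the threshold. It encodes the beta 3 chain, which is known in laminin-332 only. Its readings were 913, 848 and 666 in epithelium, against 199, 6.1 and 66.9 on mesenchyme 1, 2 and 3. All epithelial arrays lay above the mesenchymal ones, whose mean log2 value of 6.20 was below the filter level of 6.81 (96.3 units), so the gene passed the filter through its epithelial signal. The difference of 3.48 ± 0.799 had limma adjusted p = 0.0507, and without mesenchyme 1 it was 4.27 ± 0.567 (adjusted p = 0.00335). Both mesenchymal readings left in that fit are under the filter level, so the size is set largely by the offset and no fold is given. With all arrays it was 4.14 (adjusted p = 0.0917) with an offset of 1 and 2.69 (adjusted p = 0.0270) with an offset of 64. In all, 5 of 16 alternatives passed, the others being median centring, the mean of probe sets and array weights (adjusted p = 0.0391, 0.0485 and 4.52e-05). Lamb3 has 1 probe set, so the mean of probe sets left its difference at 3.48, and the array weights rested on few arrays. The 11 that did not pass included no normalization (0.0789), no filter (0.0676), the replicate block (0.189) and the leaving out of any array but mesenchyme 1, at adjusted p from 0.0872 to 0.196. Without mesenchyme 2, the array with the lowest reading, the difference fell to 2.58. The table carries no detection calls, so it is not known whether the lowest of these readings lie above background.

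Lamb1 encodes the beta 1 chain, which joins laminins of all 5 alpha chains. Its signal was 25694, 24970 and 23790 on the epithelial arrays and 19150, 23569 and 26943 on the mesenchymal ones, which overlapped. The difference was 0.11 ± 0.170 (95% interval -0.29 to 0.51, limma adjusted p = 0.757), and -0.02 (-0.34 to 0.30) without mesenchyme 1. Both intervals exclude a difference of 1 log2 unit in either direction, for this probe set alone. Like those of Lama5 and Lamb3, it is of the kind that can match several transcripts. With only unique-kind probe sets the Lamb1 difference was 0.31 ± 0.371 (limma adjusted p = 0.683), a less precise value.

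Lamb2, the beta 2 chain of neuromuscular junctions and kidney glomeruli, read 663, 412 and 406 on the epithelial and 654, 728 and 906 on the mesenchymal arrays. Epithelium 1 and mesenchyme 1 were nearly equal. The difference was -0.64 ± 0.357 (limma adjusted p = 0.384) and -0.76 ± 0.334 (adjusted p = 0.205) without mesenchyme 1, and did not pass in any of the 18 alternative settings.

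Lamc1, the gamma 1 chain shared by most laminins, read 976, 670.5 and 955 on the epithelial arrays and 402, 526 and 593 on the mesenchymal ones. All epithelial arrays lay above the mesenchymal ones, and in 28.8% of all genes tested the layers did not overlap in one direction or the other. The difference was 0.75 ± 0.344 (95% interval -0.05 to 1.56, limma adjusted p = 0.286), and 0.62 (adjusted p = 0.245) without mesenchyme 1. The difference at its other probe set was -0.13, and the layers overlapped there. In all, 4 of the 9 genes had every epithelial array above every mesenchymal one (15.5% of all genes did) and 2 the reverse (13.2%). Without mesenchyme 1 these were 4 (23.1% of all genes) and 4 (22.3%). Both epithelial counts include Lamb3, which passed the filter through its epithelial signal.

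The ratio of beta chains within an array was compared between layers, to ask whether the beta chains differed unequally. The log2 ratio of Lamb3 to Lamb1 lay at -5.12 to -4.79 on the epithelial arrays and at -10.1 to -6.48 on the mesenchymal arrays, a difference of 3.37. Lamb3 to Lamb2 differed by 4.11 and Lamb2 to Lamb1 by -0.74, the latter at -5.87 to -5.24 in epithelium and -4.99 to -4.84 in mesenchyme. None of the 3 ratios overlapped between layers. Lamb3 passed the filter through its epithelial signal, so the separation of the ratios that contain it is no separate support. Each had p = 0.1 in a two-sided exact permutation test, the smallest that 3 against 3 arrays can give, and adjusted p = 0.1 over the 3 ratios. Without mesenchyme 1 the differences were 4.29, 5.03 and -0.74 (exact permutation adjusted p = 0.15, 0.15 and 0.2). There too the unadjusted p could not go below 0.1, so the test cannot decide whether the beta chains differed unequally. The sizes depended on the processing. Because Lamb3 was dim in mesenchyme, Lamb3 to Lamb1 differed by 4.03 with an offset of 1 and 2.58 with an offset of 64, and Lamb3 to Lamb2 by 4.79 and 3.27. Lamb2 to Lamb1 differed by -1.15 without normalization. Ratios between probe sets of different genes are in arbitrary units, so only their change between layers is read.

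Set out by heterotrimer, the alpha chain was the one chain past the threshold wherever any passed. For laminin-111 and laminin-121 no chain passed, with Lama1 at 0.20, Lamb1 at 0.11, Lamb2 at -0.64 and Lamc1 at 0.75. For laminin-211 and laminin-221, and for laminin-411 and laminin-421, the alpha chain was higher in mesenchyme (-3.26 and -5.03) while the beta and gamma chains did not pass. For laminin-311 and laminin-321 and for laminin-511 and laminin-521 the alpha chain was higher in epithelium (3.77 and 2.35), with the same beta and gamma chains. Both measured chains of laminin-332 had positive differences, Lama3 at 3.77 past the threshold and Lamb3 at 3.48 with limma adjusted p = 0.0507, and both passed without mesenchyme 1. Lamb3 passed the filter through its epithelial signal, so its call is no separate support for that trimer. The gamma 2 chain of laminin-332 was not analysed here. RNA levels of chains do not give the amount of a trimer, which was not measured.

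**Figure D3:**
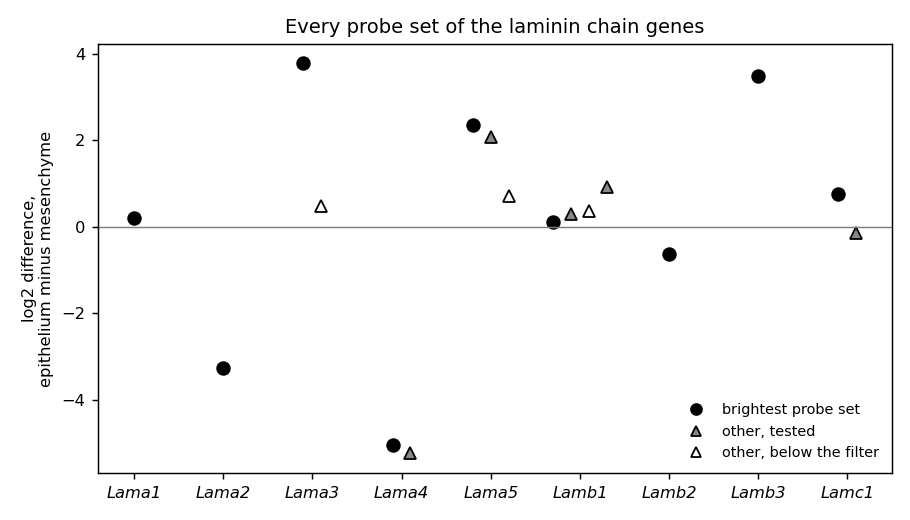
Log2 difference (epithelium minus mesenchyme) of all 17 probe sets of the laminin chain genes, with the brightest as black circles, other tested ones as grey triangles and those below the filter as white triangles. The tested probe sets of Lama4 and of Lama5 lie together, those of Lamc1 lie on either side of 0, and the second probe set of Lama3 (0.47) is below the filter.

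The other probe sets gave a partial check. Of the 17, 14 were above the filter and 5 passed when all 27022 probe sets were tested, 2 higher in epithelium (1.24% of all did) and 3 higher in mesenchyme (2.42%). The second probe set of Lama4 differed by -5.23 ± 0.365 (limma adjusted p = 0.00338) and read 3799 to 4913 in mesenchyme and 68.9 to 145 in epithelium, where epithelium 2 was the lowest. The second tested one of Lama5 differed by 2.07 (adjusted p = 0.0513, and 0.0181 without mesenchyme 1). The 3 tested probe sets of Lamb1 differed by 0.11, 0.31 and 0.93, none past the threshold, and the last did not overlap between layers. Lama1, Lama2, Lamb2 and Lamb3 have 1 probe set each and Lama3 only 1 above the filter, so no second reading exists for them above the filter.

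In bulk tissue, fewer cells of a type and less RNA per cell cannot be told apart, and neither layer was free of the other's markers. On the mesenchymal arrays the epithelial markers summed to 33.2% (mesenchyme 1), 6.88% and 1.26% of their epithelial mean. Lama3 there read 25.3%, 4.94% and 2.53% of its epithelial mean, in the same order of arrays. Lamb3 read 24.6%, 0.76% and 8.26%, and Lama5 24.4%, 13.8% and 17.5%, so mesenchyme 1 was highest for all 3 genes while mesenchyme 2 and 3 changed places. Of the 10 epithelial markers 0 were below the filter level on mesenchyme 1. The part of these markers in the laminin differences was not tested, and the differences without mesenchyme 1 were larger for Lama3, Lama5 and Lamb3.

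On the epithelial arrays the 10 endothelial markers summed to 1272 to 2894 units, or 3.16%, 7.19% and 3.32% of their mesenchymal mean on epithelium 1, 2 and 5, against 34545 to 48350 on the mesenchymal arrays. Of these 10 markers 1 was below the filter level on every epithelial array. Lama4 read 1.08%, 9.51% and 2.20% of its mesenchymal mean and Lama2 3.68%, 16.5% and 11.6%. Epithelium 2 was the highest for both genes and for the summed endothelial and mesenchymal markers (13.7%, 24.7% and 18.7%), although not for the second Lama4 probe set. The skeletal and smooth muscle sums were highest on epithelium 5, at 2.22% and 29.5%, against 1.68% and 14.4% on epithelium 2. Pdgfrb, Twist2, Col1a1, Dcn and Postn of the mesenchymal list and Aplnr and Cldn5 of the endothelial list were also highest on epithelium 5. The other markers of these lists were highest on epithelium 2. The 8 skeletal muscle markers summed to 677 to 1068 in epithelium and to 107414, 23816 and 12857 on mesenchyme 1, 2 and 3, and the 7 smooth muscle markers to 4906 to 10851 and to 53025, 32794 and 24628. Lama2 and both of these sums were highest on mesenchyme 1, although Myog, Pax7, Cnn1 and Myocd were not. Of 8 listed glial and Schwann markers 6 were on the array, summing to 17214 to 24712 in epithelium and 8813 to 17776 in mesenchyme. Most of that was Erbb3 (16817 to 24263 and 6444 to 11721), which epithelia also express. Sox10, the defining glial factor, read 134 to 257 on all 6 arrays. Of 5 tested glial markers 2 were higher in mesenchyme by limma (list median -1.96), against 4.03% of all genes. These were Fabp7 with 11.7 to 99.7 in epithelium and 1265 to 4981 in mesenchyme (-5.09, adjusted p = 0.0110) and S100b (-2.89, adjusted p = 0.0288). Foxd3 differed by -1.96 (adjusted p = 0.171), and Cdh19, which was not tested, read 6.4 to 9.7 in epithelium and 27.0 to 468 in mesenchyme. Of 7 listed neuronal markers 6 were on the array. They summed to 8.29%, 11.4% and 7.56% of their mesenchymal mean on epithelium 1, 2 and 5. Epithelium 2 was the highest for this sum too, although not for Stmn2, Snap25, Prph and Tubb3. By limma 4 of 6 tested neuronal markers were higher in mesenchyme (list median -5.05), against 4.03% of all genes. The part of vessel, muscle and nerve cells in the Lama4 and Lama2 differences was not tested.

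**Figure D4:**
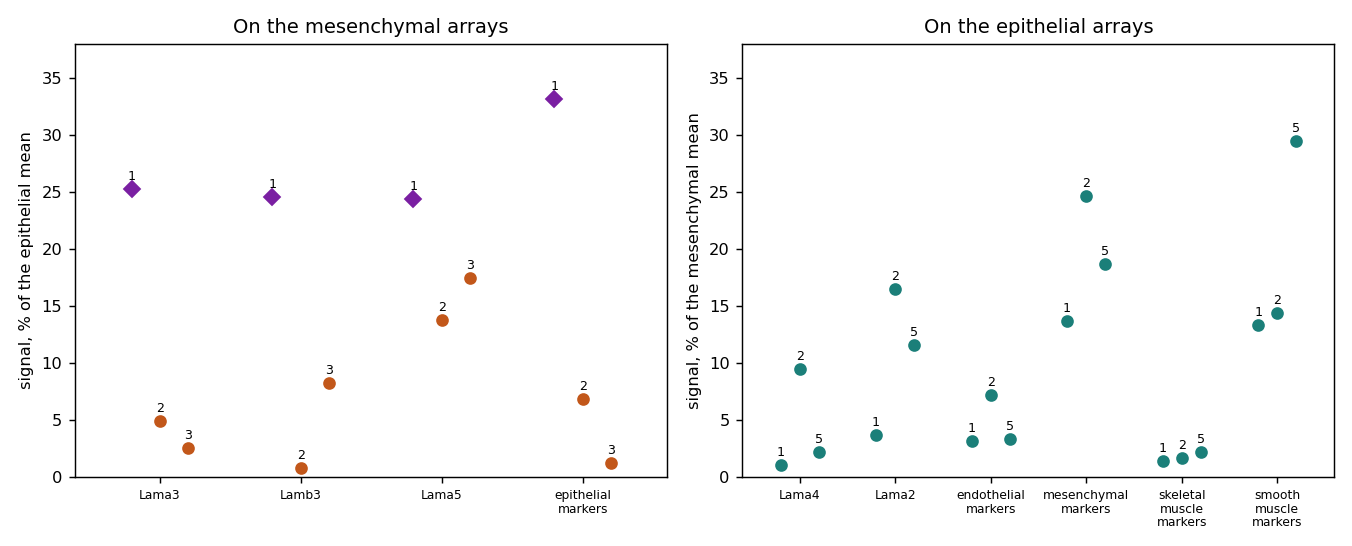
Signal on each array of the layer with the lower level, in percent of the mean of the other layer, for laminin genes and for the summed markers, with array numbers. In the left panel mesenchyme 1 (purple diamond) lies at 24.4% to 25.3% for the 3 laminin genes and at 33.2% for the epithelial markers, and in the right panel epithelium 2 is highest for Lama4, Lama2 and the endothelial and mesenchymal markers.

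Cells bind laminins through integrins, dystroglycan and other receptors. Of 12 tested laminin receptors, 0 were higher in epithelium and 1 in mesenchyme by limma over all 6 arrays (median 0.15), against 5 and 2 without mesenchyme 1 (median 0.01). By the same rule 1.95% and 4.03% of all genes passed with all arrays, and 6.37% and 8.17% without mesenchyme 1, so calls rose over all genes too. At an unadjusted p under 0.05 the receptor counts were 4 and 3 with all arrays, beside 2670 of all 13717 genes in either direction. Itga1, an integrin alpha chain that binds collagen IV and laminin, was the one that passed, at 271, 171 and 234 in epithelium and 970, 1127 and 1230 in mesenchyme (-2.24 ± 0.344, adjusted p = 0.0136). The brightest of the list were Dag1, dystroglycan, and Itga6, the alpha chain of the hemidesmosome receptor. Dag1 had a difference of 0.71 (adjusted p = 0.319) that was 1.11 (adjusted p = 0.00828) without mesenchyme 1, and Itga6 of 0.90 (adjusted p = 0.0799) that was 1.12 (adjusted p = 0.00472).

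Dystroglycan binds laminin through a sugar chain that a set of enzymes builds. Of 9 tested enzymes of this path, 1 was higher in epithelium and 0 in mesenchyme (median 0.37). By the same rule 1.95% and 4.03% of all genes passed. Leaving out mesenchyme 1 kept the enzyme counts, whereas the shares of all genes rose to 6.37% and 8.17%. At an unadjusted p under 0.05, 1 enzyme was higher in each layer, beside 2670 of all 13717 genes in either direction. Large2, which extends the laminin-binding sugar, read 1494, 1207 and 3062 in epithelium and 223, 308 and 315 in mesenchyme. All epithelial arrays were the higher, and the difference was 2.60 ± 0.433 (6.05-fold, limma adjusted p = 0.0171). The brightest of the list, Rxylt1 and B3galnt2, had differences of -0.35 and 0.75 that did not pass, nor did their -0.57 and 0.24 without mesenchyme 1.

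Among 22 tested basement membrane partners, 3 were higher in epithelium and 5 in mesenchyme (median 0.12), and 6 and 7 of 21 without mesenchyme 1. Beside them stand 1.95% and 4.03% of all genes, and 6.37% and 8.17% without mesenchyme 1. Both nidogens, which link laminin gamma 1 to collagen IV, were higher in mesenchyme. Nid1 read 1117, 2785 and 1670 in epithelium and 16273, 14660 and 16692 in mesenchyme (-3.18 ± 0.356, limma adjusted p = 0.00549), and Nid2 differed by -4.06 (adjusted p = 0.00835). Col15a1, a collagen of the zone below basement membranes, was also higher in mesenchyme (-2.80, adjusted p = 0.00947). Frem2, a part of the Fraser complex under epithelia, was higher in epithelium at 7453, 9289 and 5479 against 2018, 1224 and 926 (2.44 ± 0.379, adjusted p = 0.0139). The other 4 that passed, named here after their values were seen, were the collagen IV chains Col4a1 (-0.94), Col4a2 (-1.59) and Col4a6 (1.90) and the Fraser complex gene Fras1 (1.73). Col17a1, also named after its values were seen, had the largest epithelial difference of the list but did not pass (3.11, limma adjusted p = 0.110). Without mesenchyme 1 its difference was 4.37 (limma adjusted p = 0.00072). Itga1, Nid1, Nid2, Col15a1, Frem2 and Large2 passed without mesenchyme 1 as well, and Nid1 without any other single array. Itga1 (adjusted p = 0.0616 to 0.0796) and Large2 (0.0556 to 0.0865) lost their calls without epithelium 1, epithelium 5, mesenchyme 2 or mesenchyme 3. Frem2 lost its call without epithelium 1, epithelium 5 or mesenchyme 2 (0.0523 to 0.0859), Col15a1 without epithelium 1 or mesenchyme 2 (0.0670 and 0.0531) and Nid2 without epithelium 1 (0.0527).

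**Figure D5:**
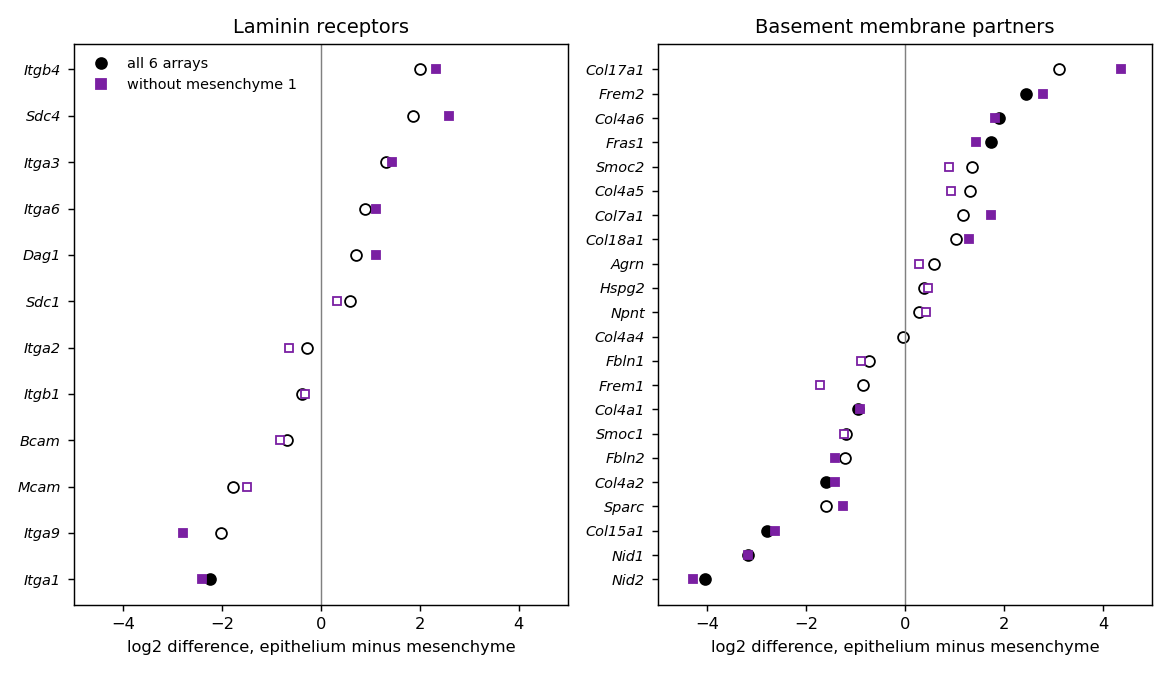
Log2 difference (epithelium minus mesenchyme) of the 12 tested laminin receptors (left) and 22 tested basement membrane partners (right), with all 6 arrays (circles) and without mesenchyme 1 (squares), filled where adjusted p is under 0.05 in limma. In the right panel Nid2, Nid1 and Col15a1 are at the mesenchymal end, and Col17a1 is at the epithelial end with Frem2 next to it.

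Of 5 tested laminin-cleaving proteases none passed in limma in either direction, with or without mesenchyme 1 (medians -0.26 and -0.78), and the brightest, Mmp2 and Ctss, had differences of -1.19 and -1.28 (adjusted p = 0.119 and 0.168). At an unadjusted p under 0.05 these counts were 0 in epithelium and 2 in mesenchyme, beside 2670 of all 13717 genes in either direction. In limma Mmp2 differed by -1.66 (adjusted p = 0.0186) with only unique-kind probe sets and by -1.425 (adjusted p = 0.0394) with the mean of probe sets. It passed in no fit that left out a single array. Both Mmp2 and Ctss passed with array weights (limma adjusted p = 0.0022 and 0.0204). Of the other laminin family and netrin genes 4 were tested and 0 passed with all arrays (1 in each direction at an unadjusted p under 0.05), with Lamc3 of the gamma 3 chain at 0.87 (adjusted p = 0.621), with its other probe set at -0.58. The brightest were Ntng1 (-1.41) and Ntn4, a netrin that binds laminin gamma chains (1.05), at adjusted p = 0.116 and 0.162 with all arrays and 0.0233 and 0.0381 without mesenchyme 1.

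As a description of pattern, the 2 tested genes whose log2 signal correlated best with each chain gene over the 6 arrays were listed. For Lama3 these were Mreg and the tight junction gene Marveld2 (r = 0.999 and 0.998), and for Lama4 Dclk1 and Pdgfra, a growth factor receptor (both r = 0.997). For Lama2 they were Adamts4 and Tal1 (r = 0.998 and 0.996), and for Lama5 Plagl2 and Polr2a, whose own differences were 0.70 and 0.69 against 2.35 for Lama5. The best for Lamb3 was Sec24b (r = 0.981) and for Lamb1 Ccna2 (r = 0.995), and for Lama1, Lamb2 and Lamc1 they were Tmem181a, Ccm2 and Heatr1 (r = 0.997 to 0.999). Each is the best of 13717 tested genes over only 6 arrays in 2 layers, and the same arrays, mesenchyme 1 included, enter every correlation.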

How the data were processed

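Gene expression was measured on Affymetrix Mouse Genome 430 2.0 arrays after 2 rounds of RNA amplification, per the labels' protocols, in 3 epithelial and 3 mesenchymal samples. The deposited values are probe set intensities (signal) on a linear scale. GCOS is named per the submitters' processing notes, its version and settings being not given in the sources used here. Each array's mean without its top and bottom 2% was 1500 in the deposited table. No detection calls were used.

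Of 45101 probe sets, 64 controls were left out; of the rest, 34945 carry 1 gene name, 932 carry several names and 9160 have no name here. RefSeq holds 34741 of the 34945 by gene identifier, which changed 0 symbols. Intensities were taken as log2(signal + 16), quantile normalized and kept above the 40th percentile of mean log2. Genes were tested with limma 3.58.1 in R 4.3.3 (eBayes with an intensity trend, no covariate), Benjamini-Hochberg adjusted over 13717 genes, threshold 0.05. The code was tested on simulated data.

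Named genes are the 9 members, up to 4 past the threshold with the largest differences in each pathway list or otherwise the 2 brightest, Lamc3, and the 2 best-correlated genes per member. Promoter windows shown and marker genes singled out were chosen after values were seen, and members and lists with earlier results of these data known. Alternatives were other offsets (1 and 64), scalings, filters, probe set rules, variance models, array weights, leaving out each array, and a block for the replicate number. No label says whether a shared replicate number marks the same embryo, so the samples were not treated as paired.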

Additional observations from a re-analysis of the deposited data

How the results depend on the processing

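Directions of Lama2, Lama3, Lama4, Lama5, Lamb2, Lamb3 and Lamc1 held in every alternative that tested them. Past the threshold, 2 laminin genes were higher in epithelium and 2 in mesenchyme, with 267 and 553 of all genes, 2 and 3 laminin probe sets and 4 and 6 pathway list genes. Leaving out 1 array at a time gave 0 to 3 and 0 to 2 laminin genes, 27 to 865 and 115 to 1110 of all genes, 0 to 4 and 1 to 3 laminin probe sets, and 0 to 13 and 1 to 10 list genes, the counts without mesenchyme 1 being the highest or level with the highest, and those of all genes without epithelium 1 the lowest. Only probe sets of the unique kind left 1 epithelial laminin gene, since Lama3 and Lamb3 had none above the filter, and no filter left 1 epithelial laminin probe set. Array quality weights, which ran from 0.0501 to 26.7 and so rested on few arrays, gave 4 epithelial laminin genes, 2598 and 2511 of all genes, 5 epithelial laminin probe sets and 20 and 21 list genes. With the replicate number as a block, limma called 0 genes, laminin genes, laminin probe sets and list genes in either direction (1460 genes at an unadjusted p under 0.05, 5 of them laminins), with Lama4 at -4.80 (adjusted p = 0.102), Lama3 at 3.12, Lama2 at -3.63 and Lama5 at 2.56. Same-numbered arrays had correlations of -0.0453 and -0.0209 between their deviations from the layer means, and numbers 3 and 5 have no partner, which leaves few degrees of freedom. With so few shared numbers, and mesenchyme 1 apart from its layer, these correlations cannot decide whether the samples were paired.

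Signs of values that did not pass turned for Lama1 (-0.11 without normalization, -0.14 with array weights, and -0.90 to 0.75 leaving out 1 array), Lamb1 (-0.049 with array weights, and -0.021 to 0.23 leaving out 1 array) and Lamc3 (-0.66 with an offset of 1, -0.74 without normalization, -0.57 with median centring, -0.50 with array weights, and -0.57 to 1.22 leaving out 1 array). Lamc3 was read there in part from its other probe set, when that was the brighter. Lamc1 passed with array weights alone (0.72, adjusted p = 0.0146). The median of all genes, 0.12 as reported, lay between 0.02 and 0.23 in the alternatives, and differences are not corrected for it. The causes of these changes were not tested.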
